A study of Mus musculus with 16 samples.

Results

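Oxtr, Tacr1, Cxcr4, Kcng1, Clic6, Cd200r3, Robo1, Auts2, Palmd and Tecta are 10 genes, most of them for receptors, channels, guidance or matrix proteins. Auts2 encodes a nuclear protein and Palmd a membrane-associated one. They were picked from the 23306 genes of a normalized count table because their levels were far lower after steroid hormone treatment of mouse endometrial epithelial organoids, 3-dimensional cultures of the cells that line the uterus. All 10 were matched by Ensembl identifier, and all 10 were among the 16509 genes with a normalized count of at least 10 in at least 4 libraries, the set that entered every test. The pick used the difference between hormone and vehicle, so that difference is described below without a test. The tests are kept for the comparisons between genotypes, which are not fully independent of the pick either.

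The organoids fell into 4 groups of 4 bulk RNA-seq libraries. Tgfbr2 conditional knockout (cKO) organoids, labelled Tgfbr2 PRcre+, were given E2/MPA (M13 to M16), control organoids with floxed Tgfbr2 (Tgfbr2 FF) were given E2/MPA (M9 to M12), and cKO (M5 to M8) and control organoids (M1 to M4) were given vehicle. E2/MPA stands for estradiol (E2) at 10 nM for 2 days, followed for 4 days by the same dose together with the synthetic progestin medroxyprogesterone acetate (MPA) at 1 µM. Vehicle was given for 6 days, and both treatments followed 2 days of culture. PRcre stands for Cre recombinase driven by the progesterone receptor gene, so it acts in cells that have expressed that gene, and the control label names no Cre. Separate animals or cultures are not named for the 4 libraries of a group, so every p-value measures only the spread between these libraries, which may be technical.

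Depth was 14372111 to 20016836 recovered reads per library. Tgfbr2 itself had 4326 ± 850 normalized counts in cKO and 5356 ± 1685 in control organoids under E2/MPA, and 4325 ± 811 in cKO and 6014 ± 1467 in control organoids under vehicle (mean ± SD, n = 4). The log2 differences were -0.28 under E2/MPA (limma adjusted p = 0.69) and -0.46 under vehicle (limma adjusted p = 0.833), and since the counts cover the whole gene they do not check a deletion of some exons. The progesterone receptor gene Pgr, which progestins are known to lower, had 1611 ± 83.6 under E2/MPA against 3217 ± 277 under vehicle in cKO organoids and 1885 ± 424 against 5134 ± 1296 in control organoids (limma adjusted p = 0.0085 in cKO and 0.00038 in control). All 10 epithelial markers were read in every library, with summed levels of 104488 to 166127 normalized counts. Libraries M4, M8, M12 and M16, 1 in each group, also held 23943 to 56854 normalized counts over 12 stromal markers, M1 and M9 held 13010 and 20560, and the 10 others held 948 to 4449. In bulk samples such as these, fewer cells of a type cannot be told apart from less RNA per cell.

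Oxtr, Tacr1 and Cxcr4 encode G protein-coupled receptors, for the hormone oxytocin, for the tachykinin substance P and for the chemokine CXCL12. In the uterus the oxytocin receptor is best known for driving contraction of the muscle layer around birth, and its abundance is controlled by ovarian steroids. Estradiol and progestins act through nuclear receptors that bind DNA as dimers and can raise or lower transcription of target genes. In the endometrial epithelium progesterone counteracts much of what estradiol does, including its drive to proliferate.

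The promoters of the 3 G protein-coupled receptor genes are shown because these genes stood close together near the bottom of the hormone ranking in control organoids. Oxtr, Tacr1 and Cxcr4 were at places 3, 7 and 4 there, and at places 9, 11 and 25 in cKO organoids. In addition 2 of them, Cxcr4 and Tacr1, carry the comparison of genotypes together with Palmd. The sequences are the 250 bases before the RefSeq start site in build GRCm38.p6, read 5′ to 3′ on the strand of the gene. They lie at chr1:128592300-128592549 on the minus strand for Cxcr4, chr6:82402225-82402474 on the plus strand for Tacr1 and chr6:112489826-112490075 on the minus strand for Oxtr. Capitals mark a match to a steroid receptor half-site.
Cxcr4: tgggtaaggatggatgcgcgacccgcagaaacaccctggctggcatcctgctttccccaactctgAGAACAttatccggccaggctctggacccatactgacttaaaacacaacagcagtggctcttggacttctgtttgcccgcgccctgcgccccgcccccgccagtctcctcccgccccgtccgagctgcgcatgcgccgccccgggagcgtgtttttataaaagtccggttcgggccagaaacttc
Tacr1: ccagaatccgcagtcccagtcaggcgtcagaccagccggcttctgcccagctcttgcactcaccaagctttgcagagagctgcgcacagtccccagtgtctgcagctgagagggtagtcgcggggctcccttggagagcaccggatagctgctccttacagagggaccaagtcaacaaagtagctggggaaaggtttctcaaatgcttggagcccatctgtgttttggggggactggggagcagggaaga
Oxtr: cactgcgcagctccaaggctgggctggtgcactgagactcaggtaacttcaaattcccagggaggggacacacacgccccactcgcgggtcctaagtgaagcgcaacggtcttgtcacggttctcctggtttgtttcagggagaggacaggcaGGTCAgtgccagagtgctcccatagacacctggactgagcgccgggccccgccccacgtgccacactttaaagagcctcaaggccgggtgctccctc
RefSeq windows were at hand for 6 of the 10 genes (Cxcr4, Tacr1, Oxtr, Cd200r3, Robo1 and Tecta), 7 windows in all because Tecta has 2. Searched on both strands, the full estrogen response element GGTCANNNTGACC was in 0 of the 7 windows and in 0.0645% of 32536 windows of all genes. Its half-site GGTCA, which forms part of that element, was in 2 of 7 windows, those of Oxtr at base -97 and of Tecta, against 35.3% of all windows. The response element shared by the progesterone and glucocorticoid receptors, GNACANNNTGTNC, was in 0 of 7 windows and 0.39% of all, and its half-site AGAACA was in 1 of 7, that of Cxcr4 at base -185, against 16.0% of all. The AP-1 site TGANTCA was in 0 of 7 windows and 6.73% of all. Positions count back from the start site, and a match describes letters, not a bound site. For Cxcr4 and Tecta the bases just after that start were not found in the GENCODE M21 transcripts of the gene. Their positions therefore hold for the RefSeq start only.

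Among the receptors, Oxtr stood at place 9 from the bottom of 16509 genes in cKO and place 3 in control organoids when genes were ordered by the log2 difference between E2/MPA and vehicle. In cKO organoids Oxtr had 16.7, 15.0, 9.12 and 77.4 normalized counts under E2/MPA (M13 to M16), against 135, 111, 75.7 and 439 under vehicle (M5 to M8). In control organoids Oxtr had 16.0, 5.00, 8.64 and 33.0 under E2/MPA (M9 to M12), against 222, 48.5, 80.2 and 592 under vehicle (M1 to M4). The last library of each group was its highest, and in cKO organoids the groups overlapped, because M16 lay just above the lowest vehicle library. The E2/MPA mean was 15.5% of the vehicle mean in cKO and 6.65% in control organoids.

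Tacr1, the receptor of substance P, had a different order of libraries. In cKO organoids Tacr1 had 111, 31.7, 93.5 and 83.9 normalized counts under E2/MPA, against 707, 463, 618 and 236 under vehicle. In control organoids Tacr1 had 30.9, 19.0, 25.9 and 28.6 under E2/MPA, against 330.5, 225, 334 and 116 under vehicle. M8 and M4 were the lowest vehicle libraries of their genotype, the reverse of Oxtr, and the hormone and vehicle groups did not overlap in either genotype. The E2/MPA mean was 15.8% of vehicle in cKO and 10.4% in control organoids.

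Cxcr4, known for guiding migrating cells towards CXCL12, was the most abundant of the 10 in cKO vehicle organoids on the scale of normalized counts, which are not corrected for gene length. In cKO organoids Cxcr4 had 112, 77.5, 153 and 354 normalized counts under E2/MPA, against 651, 461, 953 and 1053 under vehicle. In control organoids Cxcr4 had 52.6, 15.0, 24.2 and 68.2 under E2/MPA, against 696, 164, 277 and 620 under vehicle. Neither genotype's groups overlapped, and 22.3% of the vehicle mean was left in cKO against 9.11% in control organoids.

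Cd200r3 encodes an activating member of the CD200 receptor family, known in the mouse from mast cells and basophils. In cKO organoids Cd200r3 had 3.57, 5.28, 4.56 and 4.30 normalized counts under E2/MPA, from 3 to 6 recovered reads per library, against 48.2, 24.4, 22.6 and 106 under vehicle. In control organoids Cd200r3 had 1.14, 8.00, 9.51 and 27.5 under E2/MPA, from 1 to 25 reads, against 58.7, 46.3, 40.1 and 199.9 under vehicle. Its means under E2/MPA were 8.79% of vehicle in cKO and 13.4% in control organoids. Of 8 mast cell and basophil markers, Cpa3, Ms4a2, Mcpt4 and Tpsb2 are not in the table, and Fcer1a and Mcpt8 stayed under 10 normalized counts in every library. The other 2 were present, Kit at 85.3 to 286 in all 16 libraries. Hdc, for histidine decarboxylase, had 21.5 to 185 in cKO and 61.6 to 1896 in control organoids under E2/MPA, and 7.85 to 11.3 in cKO and 6.40 to 20.5 in control organoids under vehicle. The list summed to 169 to 333 in cKO and 192 to 2185 in control organoids under E2/MPA, and 96.5 to 192 in cKO and 128 to 292 in control organoids under vehicle, and its part in the level of Cd200r3 was not tested.

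Both channel genes were low under hormone. Kcng1, a potassium channel subunit that is silent alone and modifies other potassium channels, stood at place 1 from the bottom of all 16509 genes in both genotypes. In cKO organoids Kcng1 had 1.19, 3.52, 3.42 and 8.60 normalized counts under E2/MPA, from 1 to 8 reads, against 66.2, 23.5, 58.7 and 415 under vehicle. In control organoids Kcng1 had 5.72, 5.00, 3.46 and 39.6 under E2/MPA, from 4 to 36 reads, against 257, 44.0, 57.3 and 626 under vehicle. The means left were 2.97% in cKO and 5.46% in control organoids, and with so few reads under hormone these shares are imprecise.

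Clic6, of the family of chloride intracellular channels, was lower by a similar share in both genotypes. In cKO organoids Clic6 had 20.2, 14.1, 9.12 and 52.7 normalized counts under E2/MPA, against 176, 75.6, 167 and 243 under vehicle. In control organoids Clic6 had 34.3, 17, 8.64 and 39.6 under E2/MPA, against 312, 49.7, 125 and 294 under vehicle. The groups of each genotype did not overlap, and 14.5% of the vehicle mean was left in cKO and 12.7% in control organoids.

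Robo1, a receptor of the secreted Slit guidance proteins, kept the largest share of its vehicle level in cKO organoids among the 10 genes. In cKO organoids Robo1 had 57.1, 57.2, 43.3 and 67.7 normalized counts under E2/MPA, against 186, 123, 108 and 243 under vehicle. In control organoids Robo1 had 48.1, 15.0, 13.8 and 64.9 under E2/MPA, against 225, 115, 126 and 309 under vehicle. The share left was 34.1% in cKO and 18.3% in control organoids, where M10 and M11 were far below M9 and M12.

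Palmd, a member of the paralemmin family of membrane-associated proteins, had 111, 76.6, 123 and 221 normalized counts under E2/MPA in cKO organoids, against 444, 314, 454 and 458 under vehicle. In control organoids Palmd had 40.1, 8.00, 22.5 and 41.8 under E2/MPA, against 352, 115, 181 and 141 under vehicle. Every cKO hormone library was above every control hormone library, and 31.8% of the vehicle mean was left in cKO against 14.2% in control organoids.

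Auts2 encodes a nuclear protein of a variant Polycomb repressive complex. In cKO organoids Auts2 had 48.8, 36.1, 25.1 and 112 normalized counts under E2/MPA, against 234, 227, 185 and 433 under vehicle. In control organoids Auts2 had 49.2, 38.0, 19.0 and 78.1 under E2/MPA, against 328, 245, 209 and 425 under vehicle. The genotypes were alike in range under either treatment, with 20.6% of the vehicle mean left in cKO and 15.3% in control organoids.

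Tecta encodes alpha-tectorin, an extracellular matrix protein known from the inner ear. In cKO organoids Tecta had 29.7, 27.3, 62.7 and 23.7 normalized counts under E2/MPA, against 175, 120, 235 and 64.4 under vehicle. In control organoids Tecta had 36.6, 28.0, 19.9 and 14.3 under E2/MPA, against 145, 57.6, 90.8 and 46.4 under vehicle. The gaps between the groups were narrow, 62.7 in M15 below 64.4 in M8 and 36.6 in M9 below 46.4 in M4, and 24.1% was left in cKO and 29.1% in control organoids.

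Over the 10 genes, the E2/MPA libraries were all below the vehicle libraries for 9 genes in cKO and 10 in control organoids, where 5.8% and 5.49% of all tested genes met the same condition. Leaving out those 4 stroma-rich libraries, a choice made after the data were seen, it was 10 of 10 in both genotypes, against 14.1% of all genes in cKO and 14.8% in control organoids. These counts follow from how the genes were picked. The median log2 difference of the 10 genes was -2.54 in cKO and -2.93 in control organoids, and over all tested genes it was -0.0039 and -0.00077. The least changed of the 10 were Robo1 in cKO organoids (-1.48, place 114) and Tecta in control organoids (-1.68, place 111). The vehicle libraries all passed 10 normalized counts for each gene, but under E2/MPA only 1 of 8 libraries did for Kcng1 and Cd200r3, 5 for Oxtr, 6 for Clic6 and 7 for Palmd, so Kcng1 and Cd200r3 passed the filter only through vehicle.

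**Figure D1:**
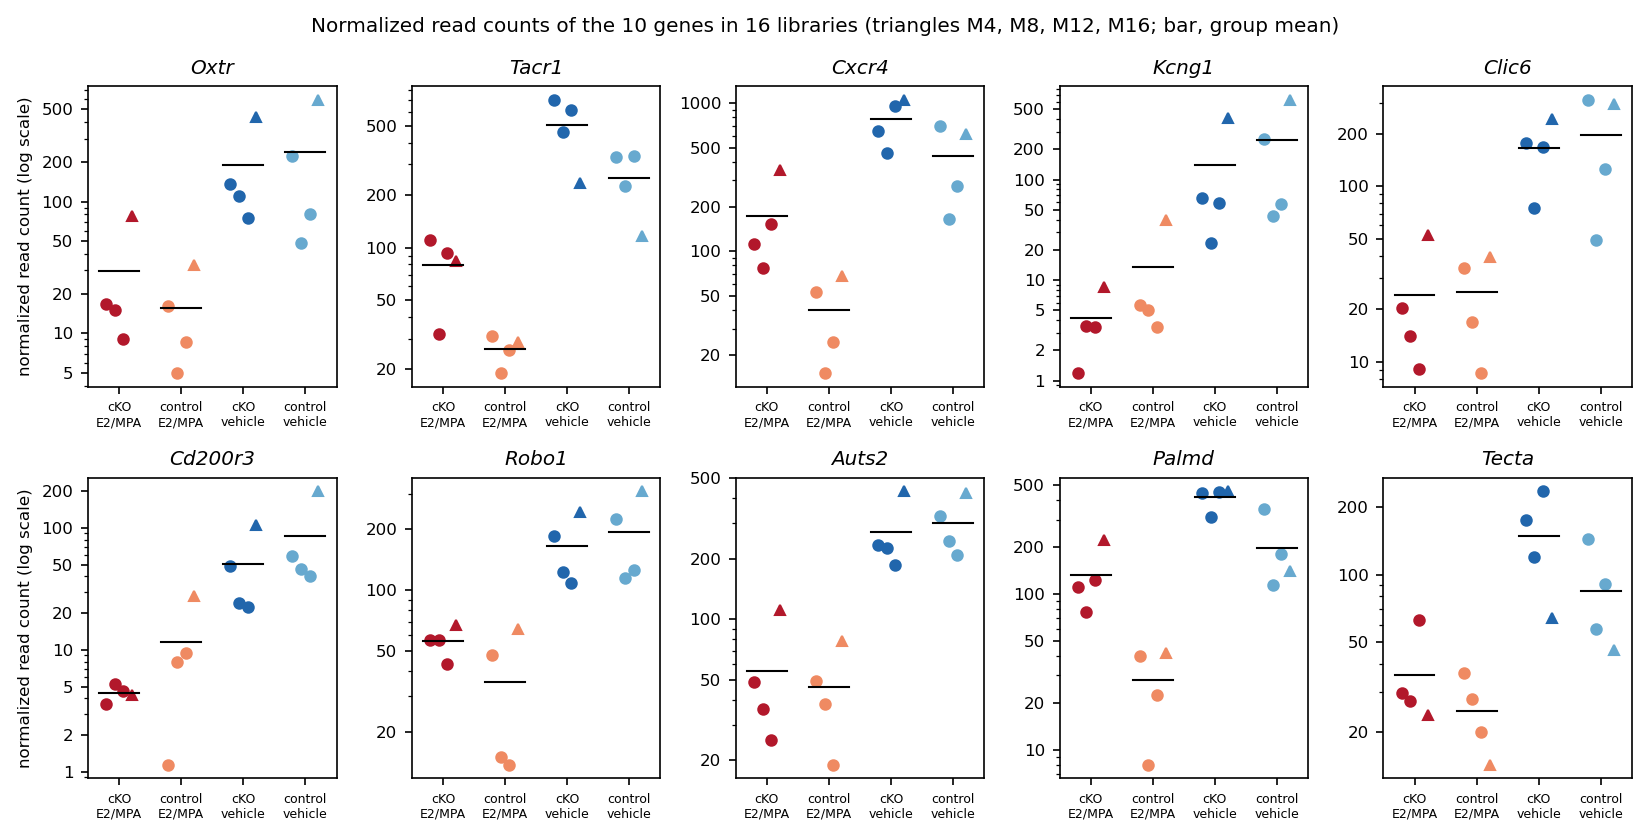
Normalized read counts (log axis) of each of the 10 genes in the 16 libraries, by group, with the group mean as a bar; triangles are M4, M8, M12 and M16. The E2/MPA points lie below the vehicle points of the same genotype except for Oxtr in cKO organoids, where M16 at 77.4 lies above the lowest vehicle library at 75.7.

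The depth of the fall was then set out library by library, as the log2 level of each E2/MPA library minus the mean log2 level of the vehicle libraries of its genotype. The median over the 10 genes was -2.54 in M13, -3.01 in M14, -2.62 in M15 and -1.36 in M16 among cKO organoids. Among control organoids it was -2.67 in M9, -3.51 in M10, -3.73 in M11 and -2.01 in M12. By this measure M16 was the shallowest cKO library, for 7 of the 10 genes, and M12 the shallowest control library, for 8 of 10. Both held many stromal transcripts, with mean log2 marker levels of 9.90 in M16 and 10.2 in M12 against 5.25 to 8.70 in the 6 other hormone libraries. The vehicle libraries numbered 8 lower, M8 and M4, were stroma-rich too (9.55 and 10.5), and the order depends on the vehicle level used. Kcng1 had 8.60 normalized counts in M16 against 415 in M8, and 3.52 in M14 against 23.5 in M6. Oxtr had 33.0 in M12 against 592 in M4, and 5.00 in M10 against 48.5 in M2.

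Oxtr varied most in cKO organoids, with a log2 difference of -0.94 in M16 and -3.89 in M15. For Cd200r3 the control libraries spanned -1.29 in M12 to -5.02 in M9, where M9 held a single read. Robo1 spanned only -1.20 in M16 to -1.83 in M15 among cKO libraries, but -1.44 in M12 to -3.60 in M11 among control libraries. Tecta went the other way from the rest, with its deepest values in M16 (-2.45) and M12 (-2.35). Tacr1 was shallowest in M13 (-2.07) and M9 (-2.87), not in the stroma-rich libraries.

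**Figure D2:**
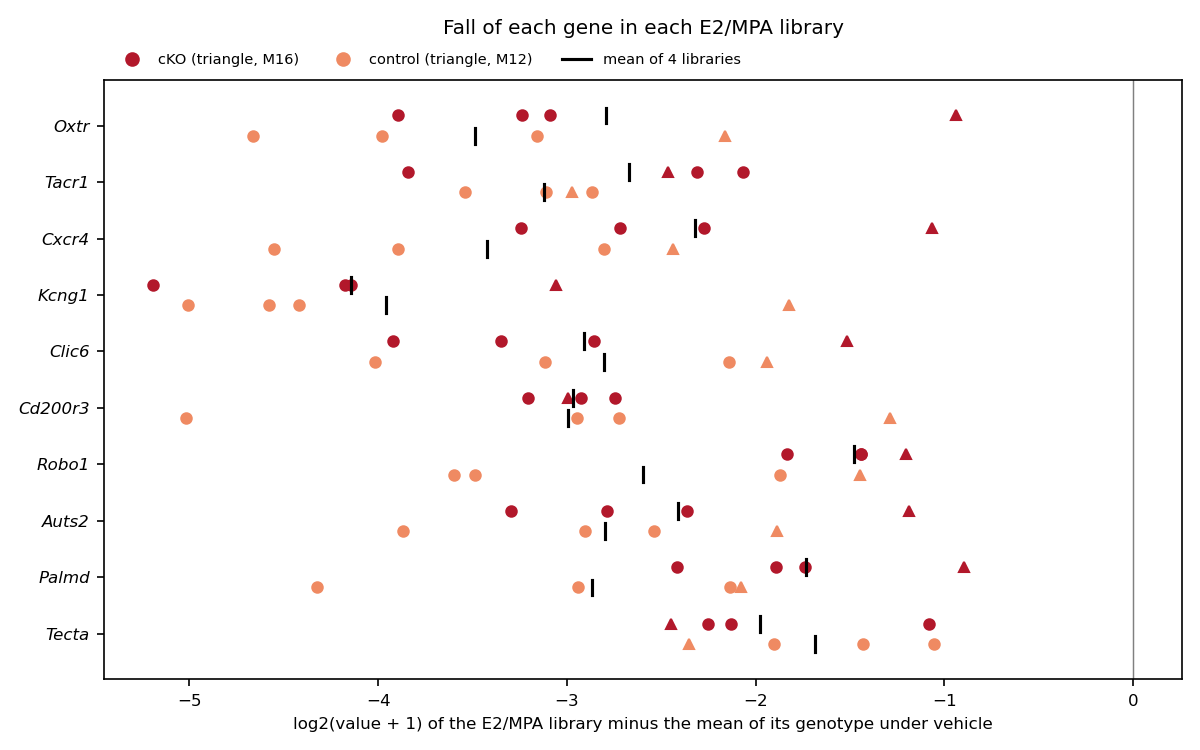
Log2 difference of each E2/MPA library from the vehicle mean of its genotype for the 10 genes, cKO libraries above control libraries, with a bar at the mean of 4 libraries. M16 and M12 (triangles) lie nearest to 0 for most genes. Tacr1 and Tecta are exceptions in both genotypes, and Cd200r3 is one in cKO organoids.

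The comparison of cKO with control organoids asks whether the level left under hormone differed between the genotypes. The cKO label carries Cre and the control label names none, so Tgfbr2 and Cre cannot be told apart here. Between cKO and control organoids Pgr differed by log2 -0.64 under vehicle (95% interval -1.04 to -0.23, before adjustment) and -0.19 under E2/MPA (-0.60 to 0.21). The limma adjusted p was 0.779 for each. The part of Pgr in the genotype differences was not tested. Palmd had 133 ± 62.2 normalized counts in cKO and 28.1 ± 16.0 in control organoids under E2/MPA (SD, n = 4), 4.74 times as much and a log2 difference of 2.33 (SE 0.46, 95% interval 1.34 to 3.32). Cxcr4 had 174 ± 124 in cKO and 40.0 ± 24.7 in control organoids, a log2 difference of 2.08 (SE 0.56, interval 0.88 to 3.29). Tacr1 had 79.9 ± 34.0 in cKO and 26.1 ± 5.15 in control organoids, a log2 difference of 1.46 (SE 0.43, interval 0.55 to 2.37). For these 3 genes every cKO library was above every control library, a condition met by 3.82% of all tested genes in that direction and, for cKO below control, by 2.35% of all genes and 0 of the 10, and the same 3 met it without M4, M8, M12 and M16 (10% of all genes). They stood at places 5, 8 and 22 from the top of 16509 genes by log2 difference.

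None of the 10 passed the test in the limma fit, in which 1 gene was called (0.00606% of those tested). The limma adjusted p was 0.154 for Palmd, 0.202 for Cxcr4 and 0.241 for Tacr1. An unadjusted limma p under 0.05 was found for 3 of the 10, and for 1794 of all 16509 tested genes. edgeR also called none of the 10, whereas DESeq2 on the recovered reads called Palmd (log2 2.25, DESeq2 adjusted p = 0.000575), Cxcr4 (2.13, adjusted p = 0.0154) and Tacr1 (1.61, adjusted p = 0.0231), with 0.814% of genes called higher. With the mean stromal marker level as a covariate, limma called Palmd (2.38, adjusted p = 0.0147), Cxcr4 (2.17, adjusted p = 0.011) and Robo1 (1.01, adjusted p = 0.0396), with 1.58% of genes called higher. The genotype difference is not independent of the pick, because a gene chosen for a low level in control organoids under E2/MPA is favoured to be higher in cKO. Stromal levels overlapped between the genotypes under E2/MPA, at mean log2 levels of 6.24, 6.56, 5.91 and 9.90 in cKO and 8.70, 5.25, 5.42 and 10.2 in control libraries.

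Robo1 had 56.3 ± 10.0 normalized counts in cKO and 35.4 ± 25.2 in control organoids under E2/MPA, a log2 difference of 0.94 (interval -0.05 to 1.93, limma adjusted p = 0.492). The differences were 0.69 for Oxtr, 0.49 for Tecta, 0.20 for Auts2 and -0.13 for Clic6, with limma adjusted p of 0.756 to 0.973. Cd200r3 and Kcng1 differed by -0.69 and -1.03. Both passed the filter only through vehicle and had at most 25 and 36 reads under E2/MPA, so these differences are imprecise. The interval for Auts2 was -0.77 to 1.17 and that for Oxtr -1.07 to 2.44, which both include 0. The median over the 10 genes was 0.59, and over all tested genes -0.0091.

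Under vehicle the same 3 genes had the highest cKO values relative to control. Palmd had 418 ± 69.3 in cKO and 197 ± 107 in control organoids, a log2 difference of 1.20 (interval 0.21 to 2.19, limma adjusted p = 0.816). Tacr1 had 506 ± 206 in cKO and 251 ± 103 in control organoids, a log2 difference of 1.01 (interval 0.10 to 1.92, limma adjusted p = 0.824), and Cxcr4 differed by 0.98 (interval -0.22 to 2.19, limma adjusted p = 0.841). None of the 10 was called, as 0% of genes were, and 0 of 10 had groups without overlap, against 1.64% of all genes above and 1.37% below. Without M4, M8, M12 and M16, Tacr1 alone had every cKO library above every control library (7.14% of all genes). The 7 other differences ran from -0.84 for Kcng1 to 0.79 for Tecta, with a median over the 10 of -0.018.

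**Figure D3:**
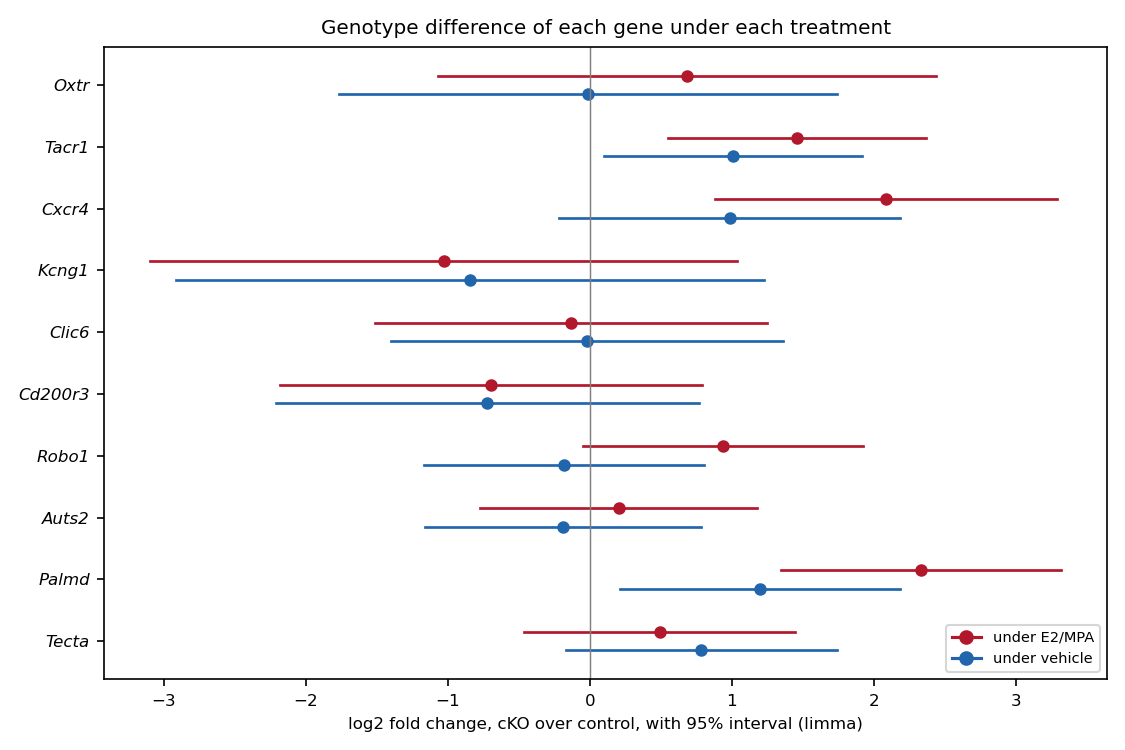
Log2 difference between cKO and control organoids with its 95% interval from the limma fit, under E2/MPA and under vehicle, for the 10 genes. Under E2/MPA the intervals of Palmd, Cxcr4 and Tacr1 lie above 0, and under vehicle those of Palmd and Tacr1 do, before adjustment for the number of genes tested.

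Whether the fall differed in depth between genotypes was tested as the interaction, the log2 hormone difference in cKO minus that in control organoids. The largest values were 1.13 for Palmd (95% interval -0.26 to 2.53), 1.12 for Robo1 (-0.28 to 2.52) and 1.10 for Cxcr4 (-0.60 to 2.80), positive where the fall was shallower in cKO organoids. Oxtr had 0.70, Tacr1 0.45, Auts2 0.39 and Cd200r3 0.03, and Clic6, Kcng1 and Tecta had -0.11, -0.19 and -0.29. The sign of Clic6 and Cd200r3 turned with edgeR and DESeq2, and that of Kcng1 with a pseudocount of 8. With at most 36 and 25 reads under E2/MPA, the values of Kcng1 and Cd200r3 are imprecise. The limma adjusted p was 1.00 for each of the 10. Limma, edgeR and DESeq2 each called 0 genes in the whole table (0%), with 309 unadjusted p under 0.05 in limma and 0 among the 10. A replicate block on libraries numbered 8 apart, a pairing the labels do not state, gave 1056 unadjusted p under 0.05 in limma and again 0 calls. The intervals above come from the fit without that block. The median was 0.42 over the 10 genes and 0.0017 over all. Oxtr, Tacr1, Cxcr4, Robo1, Auts2 and Palmd stood nearer the bottom of the hormone ranking in control than in cKO organoids, and a pick on 1 genotype favours a deeper fall there.

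How the 10 genes varied within groups was described by the deviation of each library from its group mean on the log2 scale, which the pick did not use. Correlations over 16 libraries share the libraries' cell makeup and are given without p-values. Of 45 pairs of genes, 8 had r above 0.8 and 14 below 0, with a median of 0.467. Oxtr went with Kcng1 (r = 0.855), Auts2 (0.841) and Clic6 (0.833), and Cxcr4 with Palmd (0.847). Without M4, M8, M12 and M16 the r of Cxcr4 with Palmd was 0.932 and that of Oxtr with Kcng1 was 0.545. Tacr1 and Tecta had r = 0.617 with each other and -0.501 and -0.641 with Cd200r3. Without those 4 libraries these values were 0.499, -0.229 and -0.223, and Tecta then had higher r with Cxcr4 (0.820) and Kcng1 (0.746), and Tacr1 with Palmd (0.616) and Cxcr4 (0.601).

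The deviations of Oxtr followed the mean stromal marker level, with r = 0.939 over 16 libraries and 0.775 over the 12 without the stroma-rich ones. The r was 0.877 and 0.860 for Robo1, 0.871 and 0.649 for Auts2, and 0.871 and 0.549 for Kcng1. Tacr1 and Tecta had -0.326 and -0.475 over 16 libraries, against 0.115 and 0.407 over 12, so that both signs turned, and Cd200r3 had 0.485 over 16 and -0.506 over 12. The epithelial marker list also varied within groups, and with it Oxtr had r = 0.962 and 0.850. With that list r was 0.781 and 0.678 for Robo1, 0.847 and 0.582 for Auts2, and 0.857 and 0.450 for Kcng1. For Clic6 it was 0.835 and 0.883, against 0.792 and 0.640 with the stromal list. For Cxcr4 r was 0.820 and 0.696 with the stromal list, and 0.767 and 0.596 with the epithelial list. Palmd had 0.562 and 0.689 with the stromal list, and 0.450 and 0.606 with the epithelial list. Leukocytes are known to express Cxcr4, and its r with the macrophage and leukocyte list was 0.252 and -0.227. The part of these cell types in the level of any of the 10 genes was not tested. In the stroma-rich library of each group Oxtr was 5.70 (M16), 3.34 (M12), 4.10 (M8) and 5.06 (M4) times the mean of the other 3 libraries.

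**Figure D4:**
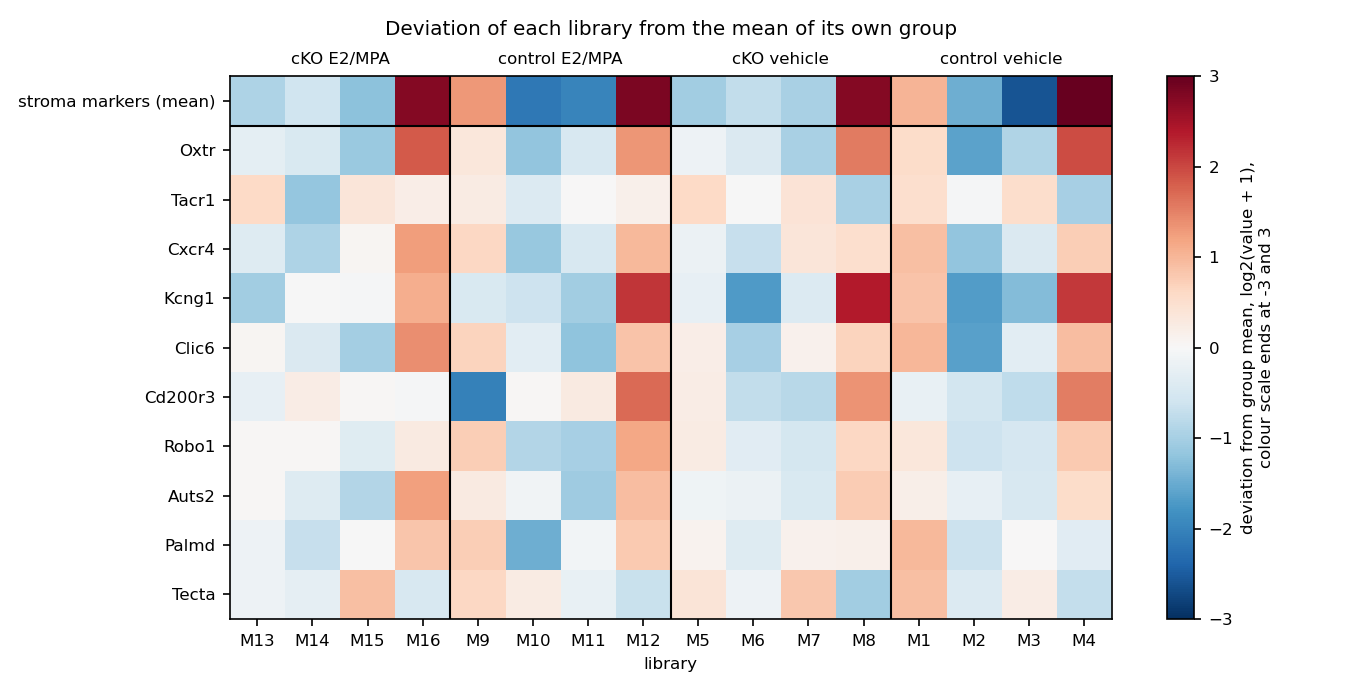
Colour map of the deviation of each library (columns, by group) from its group mean on the log2 scale, for the mean of 12 stromal markers (top row) and the 10 genes; red is above and blue below the group mean. M16, M12, M8 and M4 are dark red in the stromal row and red for Oxtr, Kcng1, Robo1 and Auts2, and blue for Tecta.

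The genes most like each of the 10 over the 16 libraries were sought among 11128 other tested genes with a mean of at least 50 normalized counts, by Pearson r of log2 levels, which carries the hormone difference used in the pick. This r takes no account of the size of a change. Oxtr was most like Tmem132a (r = 0.977) and Glipr2 (0.976). Tmem132a fell by a smaller share than Oxtr. Its means were 366 in cKO and 353 in control organoids under E2/MPA, and 652 in cKO and 649 in control organoids under vehicle. Tacr1 was most like Ntrk2 (0.970), the gene of the neurotrophin receptor TrkB, whose means were 267 in cKO and 174 in control organoids under E2/MPA, and 838 in cKO and 547 in control organoids under vehicle. Palmd was most like the kinase gene Pim1 (0.981) and the scaffold gene Nedd9 (0.972), and Cxcr4 like Homer3 (0.976) and Inava (0.974). Auts2 was most like Rdh10 (0.973), which encodes a retinol dehydrogenase, and Zc3h7b (0.971). Robo1 had Ltbp1 (0.969) and Sms (0.968), Kcng1 had Psd3 (0.969) and Fermt1 (0.963), and Clic6 had Mex3a (0.961) and Tmem132a (0.958). Tecta had Ctc1 (0.969) and Ltbp3 (0.942). The lowest likeness was that of Cd200r3 to Ano1 (0.937) and Zfp213 (0.922).

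The ligands, partners and relatives of the 10 genes were taken from 10 lists of 95 genes in all, of which 72 are in the table and 53 were tested. In cKO organoids 2 rose and 3 fell under E2/MPA, where 2.71% of all tested genes rose and 1.48% fell (4.19% in either direction). In control organoids 2 rose and 5 fell, where 5.39% of all tested genes rose and 3.51% fell (8.9% in either direction). Their median log2 hormone difference was 0.020 in cKO and -0.024 in control organoids, and none was called for genotype or interaction.

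The CXCL12 axis had 10 listed genes, 9 of them tested, and 1 fell. Ackr3, a decoy receptor that takes up CXCL12, had 437 ± 72.2 normalized counts under E2/MPA against 945 ± 145 under vehicle in cKO organoids (log2 -1.11, limma adjusted p = 0.000219). In control organoids Ackr3 had 370 ± 27.5 against 874 ± 80.7 (log2 -1.24, limma adjusted p = 5.03e-05). CXCL12 itself was not tested, with at most 15.2 normalized counts in any library. Gnai2, a G protein subunit through which CXCR4 signals, had a log2 difference of -0.03 in cKO and -0.18 in control organoids (limma adjusted p = 0.913 and 0.322), and the ligand gene Mif had -0.12 and -0.19.

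Among 17 Slit, Robo and netrin pathway genes, 10 were tested, 2 fell in cKO and 3 in control organoids. Slit2, a ligand of ROBO1, had 299.8 ± 46.6 normalized counts under E2/MPA against 615 ± 121 under vehicle in cKO organoids (log2 -1.03, limma adjusted p = 0.0247), and 184 ± 63.5 against 377 ± 107 in control organoids (log2 -1.06, limma adjusted p = 0.013). Robo1, for the receptor, was lower in the same libraries. Ntn4, a netrin, fell by 1.10 on the log2 scale in cKO (limma adjusted p = 0.000355) and by 0.91 in control organoids (limma adjusted p = 0.000851). Neo1, a netrin receptor, fell by 0.35 in control organoids (limma adjusted p = 0.00638) and had a log2 difference of -0.19 in cKO (limma adjusted p = 0.132), and the interaction was not called.

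The tachykinin list had 1 tested gene of 6, and it rose. Mme, the membrane peptidase neprilysin that degrades substance P, had 4125 ± 1638 normalized counts under E2/MPA against 835 ± 351 under vehicle in cKO organoids (log2 2.32, limma adjusted p = 0.00707). In control organoids Mme had 6311 ± 1934 against 1209 ± 650 (log2 2.51, limma adjusted p = 0.00253). Tacr1, for the receptor of that peptide, was lower in the same libraries. The ligand gene Tac4 was under 10 normalized counts in every library and was not tested.

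Of the 8 tested genes around oxytocin and vasopressin, 0 were called in either genotype. Plcb3, a phospholipase downstream of such receptors, had log2 differences of 0.03 in cKO and -0.05 in control organoids, and Lnpep, the peptidase known as oxytocinase, had 0.27 and 0.15 (limma adjusted p = 0.0732 in cKO). Of 11 potassium channel relatives of Kcng1, 1 was tested and 0 were called. Kcnf1, another silent subunit, had 13.9 ± 12.4 normalized counts under E2/MPA against 5.67 ± 2.53 under vehicle in cKO organoids, and 31.3 ± 14.5 against 9.26 ± 8.88 in control organoids (limma adjusted p = 0.685 in cKO and 0.11 in control).

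All 4 relatives of Clic6 were tested and 0 were called. Clic1 and Clic4 had 7671 ± 731 and 5523 ± 425 normalized counts in cKO organoids under E2/MPA, against 7548 ± 381 and 4417 ± 529 under vehicle. Of 7 genes around CD200 receptors, 4 were tested and 0 were called, among them the adaptors Dok1 (log2 -0.18 in cKO and -0.26 in control) and Dok2 (-0.70 and -1.02). The 11 partners of AUTS2 were all tested, and 1 was called, Fbrsl1, a paralog of Auts2, in control organoids (log2 -0.32, limma adjusted p = 0.0435, and -0.24 with adjusted p = 0.181 in cKO). Of 4 paralemmin relatives of Palmd, 2 were tested and 0 were called, and Palm had log2 differences of 0.20 in cKO and 0.05 in control organoids.

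Among 13 genes for zona pellucida domain proteins, the family of TECTA, 3 were tested and 1 rose. Cuzd1 had 7681, 5841, 8292 and 998 normalized counts under E2/MPA in cKO organoids, against 97.6, 128, 222 and 11.7 under vehicle (log2 5.82, limma adjusted p = 0.044). In control organoids Cuzd1 had 7127, 20188, 20888 and 959 under E2/MPA, against 49.9, 797, 687 and 3.20 under vehicle (log2 6.14, limma adjusted p = 0.0209). The stroma-rich library was the lowest in each of its 4 groups. Tgfbr3, which also holds this domain, had log2 differences of 1.13 in cKO and 1.47 in control organoids (limma adjusted p = 0.702 and 0.524).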

How the data were processed

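Organoids of mouse endometrial epithelium, 16 libraries in 4 groups of 4, were measured by bulk RNA-seq (Trizol and column extraction, TruSeq libraries, NovaSeq, per the labels' protocols). Per the submitters' processing notes, HISAT2, featureCounts, DESeq2 and build GRCm39 were used, without versions. No source used here gives the strand setting. The table that the authors deposited holds a signal, reads per gene after division by each library's size factor. Multiplied back, 100% of values were whole reads within 0.01, with 14372111 to 20016836 reads per library. The count tests on these reads called 1501 (edgeR) and 2182 (DESeq2) genes for E2/MPA in control and 678 and 1273 in cKO organoids. Symbols came from GENCODE M21 names for 22484 of 23306 genes. The 822 others hold 1.83% of the reads.

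Values were analysed as log2(value + 1), which understates changes of low genes. The test took the 16509 genes that reached 10 in 4 or more libraries, leaving 6797 aside. The 16 libraries entered 1 limma fit (3.58.1, R 4.3.3) with a mean-variance trend and a mean per group, two-sided, with Benjamini-Hochberg adjustment over all tested genes and a threshold of 0.05. It was tested on simulated counts. Adjusted p-values are limma's unless edgeR (4.0.16) or DESeq2 (1.42.0) is named. The 10 genes, the lists and the tests were chosen with earlier results of these data known. Named beside the 10 genes are Tgfbr2, Pgr, up to 4 called members of each related list (lowest adjusted p first), the 2 with the highest mean where fewer than 2 were called, and the 2 most alike genes. Cxcl12 was named after its values were seen, and a gene that this rule names is not reported here. Marker lists were epithelium, stroma, smooth muscle, endothelium, macrophage and leukocyte, mast cell and basophil, ciliated cell, gland and lumen. Promoter windows came from RefSeq (GRCm38.p6), another build than that of the counts. Alternatives covered the pseudocount, filter, scaling, count tests, libraries, a stromal covariate and a block. Libraries of a group differed by more than counting noise (M10 and M11 were closest, at a chi-square of 7.70 per degree of freedom).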

Additional observations from a re-analysis of the deposited data

Results flagged for a closer look

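Among the 40 sets of 4 libraries (10 genes in 4 groups), 7 (17.5%) held a library far from the other 3 relative to their range. Chance gives about 1 in 20 for independent sets of normally distributed values. These counts were not on a log scale and the 10 genes share the same libraries, so the share cannot be weighed against that figure. Oxtr had 77.4 normalized counts in M16, against 9.12 to 16.7 in the other cKO libraries under E2/MPA, and 439 in M8, against 75.7 to 135 in the other cKO libraries under vehicle. Kcng1 had 39.6 in M12, against 3.46 to 5.72 in the other control libraries under E2/MPA, and 415 in M8, against 23.5 to 66.2 in the other cKO libraries under vehicle. Cd200r3 had 199.9 in M4, against 40.1 to 58.7 in the other control libraries under vehicle. These 5 high values lie in the 4 libraries with the most stromal transcripts, whose part in them was not tested. Palmd had 314 in M6, below 444 to 458 in the other cKO libraries under vehicle. Tecta had 62.7 in M15, above 23.7 to 29.7 in the other cKO libraries under E2/MPA. M6 and M15 are not among the stroma-rich libraries.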

How the results depend on the processing

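Of 1385 recomputed values of the 10 genes, 1335 counted as unchanged and 43 reversed. Another 6 came past the threshold, those named beside the genotype comparison under E2/MPA. For hormone differences (557 of 558 unchanged) this meant the same direction and a shift smaller than the SD within groups, with no threshold checked. For the other comparisons it meant the same direction and side of the threshold. No hormone difference of the 10 genes reversed, and that of Cd200r3 in cKO organoids moved to -2.02 with a pseudocount of 8. Reversed values were 0.13 (without M4, M8, M12 and M16) and 0.32 (stroma covariate) for Oxtr between genotypes under vehicle, and 0.063 and 0.20 for Clic6. In the interaction they were 0.21 (pseudocount 8) and 0.25 (without those 4 libraries) for Kcng1, 0.21 (edgeR) and 0.20 (DESeq2) for Clic6, and -0.57 (edgeR), -0.60 (DESeq2) and -0.058 (stroma covariate) for Cd200r3. Leaving out 1 library at a time gave reversals within these ranges. Between genotypes under E2/MPA they were -0.59 to 0.21 for Clic6 and -0.21 to 0.51 for Auts2. Under vehicle they were -0.55 to 0.64 for Oxtr, -0.56 to 0.31 for Clic6 and -0.39 to 0.081 for Robo1. For the interaction they were -0.89 to 0.61 for Kcng1, -0.57 to 0.43 for Clic6, -0.65 to 0.60 for Cd200r3 and -0.020 to 0.69 for Auts2. Under E2/MPA the genotype difference stayed at 1.85 to 2.60 for Palmd, 1.66 to 2.41 for Cxcr4 and 1.26 to 1.85 for Tacr1.

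Genes called for E2/MPA in control organoids (1469) were 484 with only the 2 groups in the fit, 2210 without M4, M8, M12 and M16, 3634 with the stroma covariate and 759 to 2230 when 1 library was left out (759 without M10, 2230 without M12). In cKO organoids (692) they were 1273 with DESeq2, 2633 with the stroma covariate and 362 to 827 with 1 library left out (362 without M13). Between genotypes under E2/MPA (1) they were 2 with a pseudocount of 8, 193 with DESeq2, 0 with only 2 groups, 9 without the 4 libraries, 409 with the covariate and 0 to 10 with 1 library left out. Under vehicle (0) they were 2 with a minimum of 50, 14 with DESeq2, 14 without the 4 libraries, 8 with the covariate and 0 to 2 with 1 library left out. The interaction had 0 throughout. The causes were not tested. With upper quartile scaling the control calls split 814 higher and 714 lower, against 890 and 579, and the cKO calls 374 and 344, against 447 and 245.

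Libraries of a genotype whose numbers differ by 8 deviated together (r of 0.386 to 0.746), and 8 of 8 correlated best with that partner, a hint from the data that the labels do not state. A replicate block on these pairs gave 4479 calls for E2/MPA in control, 3098 in cKO organoids, 1 for genotype under E2/MPA, 1 under vehicle and 0 for the interaction, which had 1056 unadjusted p under 0.05 with the block and 309 without. Under E2/MPA the 1 to 36 reads of Kcng1 and 1 to 25 of Cd200r3 limit what their levels can show.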

Other observations

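Of the other marker lists, smooth muscle markers had mean log2 levels of 4.17 to 6.38 in cKO and 3.45 to 7.00 in control organoids under E2/MPA, and 3.97 to 6.15 in cKO and 3.63 to 7.02 in control organoids under vehicle, with 8 of 8 markers in the table. Endothelial markers Tie1, Cldn5 and Emcn are not in the table and Tek stayed under 10 normalized counts. Egfl7 (64.8 to 132) and Cdh5 (12.6 to 68.8) were present in all 16 libraries and Pecam1 had at most 12.4, while Kdr had 133 in M16, 188 in M12, 136 in M8, 74.3 in M1 and 471 in M4, against at most 10.1 in the 11 other libraries. The 5 endothelial markers in the table summed to 105 to 244 in cKO and 158 to 307 in control organoids under E2/MPA, and 121 to 241 in cKO and 126 to 609 in control organoids under vehicle. Ciliated cell markers (7 of 8 in the table) had mean log2 levels of 3.15 to 3.56 in cKO and 3.40 to 3.77 in control organoids under E2/MPA, and 3.22 to 3.65 in cKO and 3.14 to 4.23 in control organoids under vehicle. Gland markers (5 of 8 in the table) had 7.49 to 8.31 in cKO and 7.81 to 8.83 in control organoids under E2/MPA, and 6.90 to 7.46 in cKO and 7.09 to 8.41 in control organoids under vehicle. Lumen markers (6 of 6) had 8.14 to 9.22 in cKO and 8.57 to 9.97 in control organoids under E2/MPA, and 7.43 to 7.92 in cKO and 7.46 to 8.51 in control organoids under vehicle. Macrophage and leukocyte markers (7 of 8) had 7.93 to 8.40 in cKO and 7.73 to 10.1 in control organoids under E2/MPA, and 7.37 to 8.30 in cKO and 7.79 to 9.63 in control organoids under vehicle.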
